A study of Sus scrofa with 12 samples.

Results

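The nucleus pulposus is the soft core of the intervertebral disc. It develops from the notochord, whereas the annulus fibrosus around it develops from the sclerotome. This account follows genes that mark the notochord, the nucleus pulposus or the sclerotome in the pig annulus. The set names 7 genes by symbol, KRT8, KRT18, KRT19, CD24, A2M, FOXF1 and PAX1, with no minimum on their counts. Of these, 4 (KRT8, KRT18, A2M and PAX1) had a named row among the 22198 genes of the count table, and KRT19, CD24 and FOXF1 were not analysed here. Counts were high enough for a test across genes in 2 of the 4, A2M and PAX1, of 12597 genes tested in all.

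The libraries were made from poly-A RNA of the central ventral annulus of the disc between L3 and L4. The pigs were Duroc crosses, 3 to 4 months old and skeletally immature. Both sexes were used, with more females than males among the controls and equal numbers in the Hyperloaded group. Pigs of both groups were anaesthetised, with isoflurane for 4 h. The 6 Non-loaded Control libraries came from 6 pigs that were not loaded. The 6 Hyperloaded libraries came from 4 pigs that received manual loads of 400 N at L3, once every 1 or 2 min for 4 h. The labels do not say which Hyperloaded libraries share a pig or an interval, so each p-value below treats the libraries as separate and is understated where pigs are shared. Totals ranged from 12484228 to 24897110 counts per library. Levels are given in CPM, the counts of a gene scaled to a common library total, after TMM factors that correct for a few very abundant transcripts.

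Keratin 8 (KRT8, type II) and keratin 18 (KRT18, type I) pair into the intermediate filaments of simple epithelia and are also found in notochordal cells. KRT19 is a further type I keratin and CD24 a surface glycoprotein, both used as markers of the nucleus pulposus. A2M encodes alpha-2-macroglobulin, a secreted inhibitor that traps proteinases, including those that cleave cartilage matrix. FOXF1 is a forkhead factor of mesenchyme that is used to mark the nucleus pulposus in some species. PAX1 is a paired-box factor of the sclerotome, which is induced in the embryo by hedgehog signals from the notochord and takes part in forming vertebrae and discs.

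In the RefSeq annotation of Sscrofa11.1, the build to which the reads were mapped, KRT8 lies at chr5:18172423-18180277 on the minus strand. KRT18 lies 37408 bases away on the plus strand, at chr5:18217686-18221432. A2M lies on the plus strand at chr5:62406928-62483690, and its relative PZP ends 10211 bases upstream of it. PAX1 lies on the plus strand at chr17:29421117-29436481 and has 5 exons in 1 transcript. The 250 bases before the annotated starts of the 2 tested members are shown, because they are the DNA next to the transcripts that the results turn on, with CG dinucleotides in capitals.
A2M (chr5:62406678-62406927, plus strand): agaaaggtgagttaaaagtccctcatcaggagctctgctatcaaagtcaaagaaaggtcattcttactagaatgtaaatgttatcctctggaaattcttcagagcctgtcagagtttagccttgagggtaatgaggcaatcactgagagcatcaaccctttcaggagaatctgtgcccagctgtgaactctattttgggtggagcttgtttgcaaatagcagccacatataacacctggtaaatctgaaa
PAX1 (chr17:29420867-29421116, plus strand): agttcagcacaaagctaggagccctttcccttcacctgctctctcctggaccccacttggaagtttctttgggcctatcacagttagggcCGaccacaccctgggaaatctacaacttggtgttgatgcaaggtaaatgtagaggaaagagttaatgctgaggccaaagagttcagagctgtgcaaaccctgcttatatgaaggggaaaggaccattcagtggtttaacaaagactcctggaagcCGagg
The A2M window held 0 CG dinucleotides and the PAX1 window held 2, and 90.2% of 19569 windows of this length before other RefSeq genes held at least 2. On either strand, neither window held the GLI motif GACCACCCA, which 0.215% of all windows held, the STAT motif TTCNNNGAA (6.12%), the SOX motif AACAAT (7.07%) or the TATA motif TATAAA (9.77%).

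The tissue was checked first against its markers, since it bears on each member. COL1A2, a chain of the type I collagen of the annulus, took 2.65 to 18.9% of all counts in the controls and 7.70 to 23.7% in the Hyperloaded libraries. COL2A1, the type II collagen of cartilage, inner annulus and nucleus pulposus, took 11.4 to 44.8% in the controls and 0.236 to 12.5% in the Hyperloaded libraries. The summed level of 5 skeletal muscle markers was 6.03 to 164 CPM in the controls, and 35197, 970 and 3990 CPM in Hyperloaded libraries 2, 3 and 6. In Hyperloaded libraries 1, 4 and 5 it was 23.9, 100 and 67.1 CPM. The summed level of 10 macrophage and monocyte markers was 16.5 to 160 CPM in the controls and 158 to 317 CPM in the Hyperloaded libraries, and 8 of the 9 tested rose, led by MSR1, a scavenger receptor (log2 fold-change 3.04, edgeR adjusted p = 0.00637). Of 5 endothelial markers 3 fell, among them TIE1 (−0.72, adjusted p = 0.00714) and ESAM (−0.88, adjusted p = 0.00770), and their summed level was 440 to 765 CPM in the controls and 340 to 548 CPM in the Hyperloaded libraries. Of 8 tested annulus and tendon markers 3 rose, including THBS4 (2.00, adjusted p = 0.00710) and TNMD (3.57, adjusted p = 0.0220), and of 10 chondrocyte markers 2 fell, including COL11A2 (−2.22, adjusted p = 0.0127). The sum of 2 adipocyte markers was 0.85 to 6.43 CPM in the controls and 1.55 to 40.3 CPM in the Hyperloaded libraries, and the 1 tested did not pass. Beside these counts, 10.8% of all tested genes were called higher and 8.45% lower. In bulk RNA, fewer cells of a type and less RNA per cell cannot be told apart.

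Keratin 8 and 18 transcripts were at or near the limit of detection in both groups, and neither keratin was tested in the fit across genes. KRT8 had 1, 0, 0, 0, 41 and 6 counts in control libraries 1 to 6, and 1, 20, 2, 2, 2 and 23 counts in Hyperloaded libraries 1 to 6. This was 3.86 CPM in control 5, 0.99 CPM in Hyperloaded 2 and 1.05 CPM in Hyperloaded 6, and at most 0.30 CPM in the other 9 libraries. KRT18 had 0, 0, 1, 0, 7 and 1 counts in the controls and 0, 44, 12, 0, 1 and 0 counts in the Hyperloaded libraries, with its highest level, 2.18 CPM, in Hyperloaded 2. A count of 0 allows up to 3 counts, which is 0.113 to 0.283 CPM depending on the library, for counting error only. Both keratins were above 3 counts in the same library in control 5 and Hyperloaded 2, whereas Hyperloaded 6 held KRT8 with 0 counts of KRT18 and Hyperloaded 3 held 12 counts of KRT18 with 2 of KRT8.

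The groups overlapped for both keratins. The mean log2 CPM (prior count 2) of KRT8 was higher by 0.55 in the Hyperloaded libraries (2-sided exact permutation test over libraries, p = 0.602, n = 6 and 6), and that of KRT18 by 0.70 (exact permutation p = 0.446). With no count minimum, the fit gave KRT8 a log2 fold-change of −0.55 (standard error 1.27) and KRT18 one of 2.27 (standard error 1.41), with edgeR adjusted p of 0.796 and 0.292. The direction for KRT8 thus depended on whether means were taken on the log scale or weighted by counts. A change was not detectable at this depth for either.

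Other filament and epithelial genes were read beside the keratins. KRT15 and KRT1 had 0 counts in all 12 libraries, and KRT20 had at most 1. Among epithelial markers, EPCAM, an adhesion molecule, had at most 4 counts per library and E-cadherin (CDH1) at most 7, and the splicing regulator ESRP1 had 0 counts in every library. CLDN7 was found in every library but was too low for the fit. It was at 0.34 to 1.57 CPM in the controls and 0.24 to 3.72 CPM in the Hyperloaded libraries. EPCAM, CDH1 and CLDN7 were each highest in Hyperloaded 2, which also held both keratins. The part of epithelial cells in the keratin counts was not tested. The tight junction protein CLDN4, the 1 tested of 6 measured, did not pass (log2 fold-change −1.09, edgeR adjusted p = 0.0764). KRT10, a keratin of stratified epithelia, was at 0.90 to 2.41 CPM in the controls and 0.64 to 1.37 CPM in the Hyperloaded libraries (log2 fold-change −0.76, standard error 0.29, edgeR adjusted p = 0.0799). Vimentin (VIM), the filament protein of mesenchymal cells, was at 1666 to 3438 CPM in the controls and 1910 to 3773 CPM in the Hyperloaded libraries, with a log2 fold-change of 0.18 (edgeR adjusted p = 0.594). The desmosome genes JUP and DSP had log2 fold-changes of −0.27 (edgeR adjusted p = 0.220) and −0.06 (adjusted p = 0.915). Of the 5 filament and desmosome genes tested, DES rose and none fell. DES encodes desmin of muscle, and at 6.63 (standard error 1.59, edgeR adjusted p = 0.0160) its log2 fold-change came with levels of 3237, 93.4 and 582 CPM in Hyperloaded libraries 2, 3 and 6, against 2.28 to 16.0 CPM in the controls. Without Hyperloaded 2 alone it was 4.42 (adjusted p = 0.0254), and without these 3 libraries it was 0.77 (adjusted p = 0.459).

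**Figure D1:**
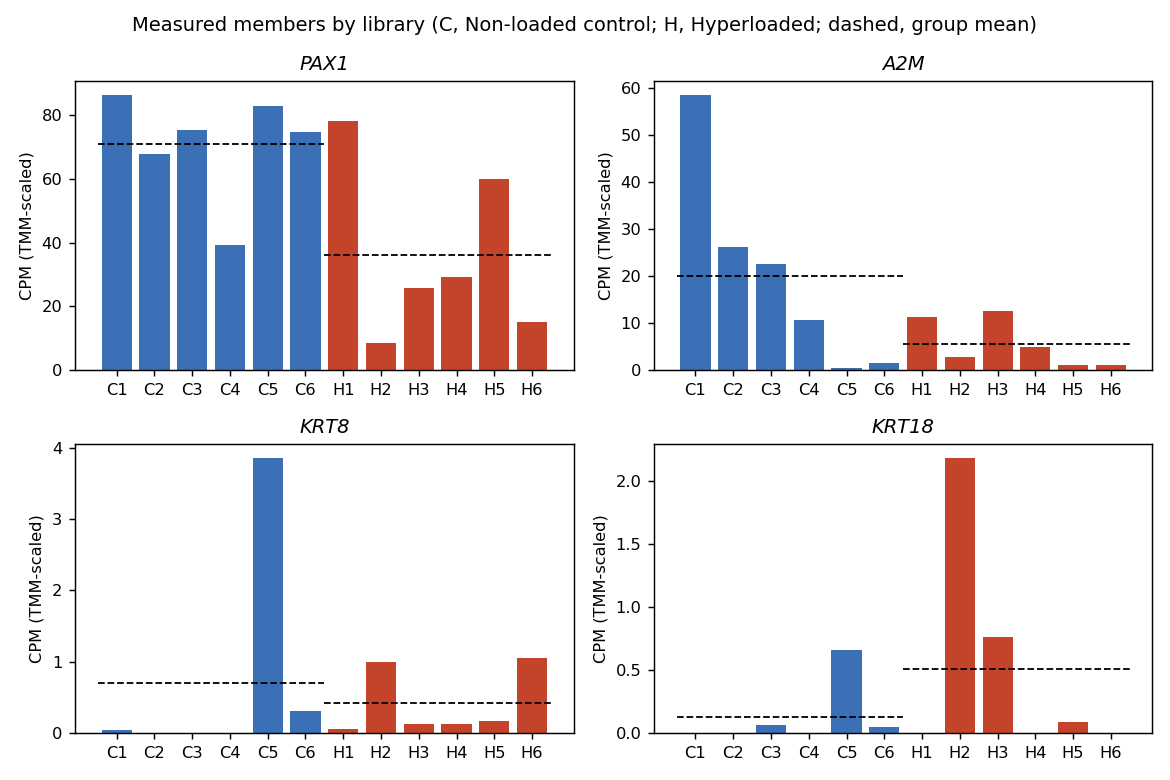
CPM (TMM-scaled) of PAX1, A2M, KRT8 and KRT18 in each library, with control libraries 1 to 6 in blue, Hyperloaded libraries 1 to 6 in red and dashed lines for the group means. PAX1 was above 67 CPM in 5 of 6 controls and in 1 Hyperloaded library, A2M was highest in controls 1 to 3, and each keratin exceeded 0.5 CPM in 3 libraries.

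A2M varied widely between libraries of the same group, and its difference between the groups did not pass the test. It was measured at 58.6, 26.3, 22.5, 10.6, 0.38 and 1.47 CPM in control libraries 1 to 6, and at 11.4, 2.73, 12.5, 5.01, 1.11 and 1.18 CPM in Hyperloaded libraries 1 to 6. Control 5 was below every Hyperloaded library and control 6 below 4 of them, and the highest control was 155-fold above the lowest. The spread of log2 CPM among the controls was 2.66 (SD), and 0.167% of the tested genes had an SD at least as large. The group means were 20.0 ± 21.7 CPM (SD, n = 6) in the controls and 5.66 ± 5.09 CPM in the Hyperloaded libraries. The log2 fold-change was −1.83 (standard error 0.92, edgeR adjusted p = 0.167). On log2 CPM, where each library has equal weight, the difference was −1.07 (2-sided exact permutation p = 0.409). Without control 1 the log2 fold-change was −1.12 (adjusted p = 0.395). It was −3.24 (adjusted p = 0.0577) without the 3 libraries for which no raw reads are listed, control 6 and Hyperloaded 1 and 3.

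The other members of the A2M family differed from one another. C3, the central complement component, has a thioester like A2M, and it rose (log2 fold-change 2.96, standard error 0.64, edgeR adjusted p = 0.0118). It was at 0.169 to 3.83 CPM in the controls and 3.08 to 12.1 CPM in the Hyperloaded libraries, and the ranges overlapped through control 1 alone. Without Hyperloaded 2, 3 and 6 its log2 fold-change was 2.59 (adjusted p = 0.102). CD109, a membrane-anchored relative that binds TGF-beta, fell (log2 fold-change −1.37, standard error 0.41, adjusted p = 0.0356), from 485 to 1011 CPM in the controls to 107 to 584 CPM. Of 12 fits that each left out 1 library, its call held without control 5, control 6, Hyperloaded 1 or Hyperloaded 5, and was lost in the other 8, with adjusted p of up to 0.0731. Over 24 alternative fits its log2 fold-change ranged from −1.96 to −0.29. CD109 was lowest in Hyperloaded 2, 4 and 6, the libraries with the least COL2A1. Endothelial cells also make CD109, and 3 of their 5 tested markers fell. The part of endothelial cells in the fall was not tested. CPAMD8, another secreted relative, ranged from 347 to 928 CPM in the controls and from 4.60 to 362 CPM in the Hyperloaded libraries, and did not pass (−2.29, standard error 0.84, adjusted p = 0.0712). LRPAP1, a chaperone of the A2M receptor, had a log2 fold-change of −0.08 (adjusted p = 0.778). A2ML1, the member nearest in name, had at most 9 counts per library. The receptor gene LRP1 and the relative PZP had no named row. Of the 4 tested genes, 3 of the family and the receptor chaperone, 1 rose and 1 fell. C3 is also made by macrophages, whose summed markers are given above. The part of those cells in this result was not tested.

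The 3 genes whose log2 CPM was most like that of A2M over the 12 libraries, of 8390 tested genes with a symbol, were PHACTR1 (Pearson r = 0.91), MMP14 (r = 0.90) and IRAG1 (r = 0.90). PHACTR1 is a regulator of actin, MMP14 a membrane-bound matrix metalloproteinase and IRAG1 a target of cGMP-dependent kinase in smooth muscle. Centred on each group, their r was 0.92, 0.89 and 0.91, so the likeness was mainly within the groups. None of these genes differed between the groups past the test, with log2 fold-changes of −0.21, −0.31 and −0.23.

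PAX1 was lower in most Hyperloaded libraries, but the difference did not pass the test. It was measured at 86.4, 67.7, 75.3, 39.3, 82.9 and 74.8 CPM in control libraries 1 to 6, and at 78.2, 8.58, 25.8, 29.3, 59.8 and 15.2 CPM in Hyperloaded libraries 1 to 6. Hyperloaded 1 and 5 were within the range of the controls, so the groups overlapped. The means were 71.1 ± 16.9 CPM (SD, n = 6) and 36.2 ± 27.1 CPM, which is 1.97-fold lower in the fit (log2 fold-change −0.98, standard error 0.44, edgeR adjusted p = 0.129). The difference of mean log2 CPM was −1.30, with an unadjusted 2-sided exact permutation p of 0.0238. The controls were close to each other (SD of log2 CPM 0.42) and the Hyperloaded libraries were not (SD 1.18).

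Of the 2 tested members, 0 were called by edgeR at an adjusted p under 0.05, against a background of 19.3% of all tested genes called in either direction (8.45% lower, 10.8% higher). PAX1 alone of the 2 had an unadjusted edgeR p under 0.05. With no count minimum 0 of the 4 measured members were called, beside 4.85% of 19019 genes called lower and 7.53% called higher. The groups overlapped for all 4, whereas 2.98% of tested genes had every Hyperloaded library below every control and 3.81% every one above. DESeq2 called 0 of the 2 and limma voom with sample weights called PAX1 (log2 fold-change −1.14, adjusted p = 0.0351). The call depended on which Hyperloaded libraries were in the fit. Without Hyperloaded 1 the log2 fold-change of PAX1 was −1.36 (edgeR adjusted p = 0.0365), and without Hyperloaded 1 and 5 it was −1.87 (adjusted p = 0.00368). Hyperloaded 1 and 5 were the libraries with the most PAX1 of their group and the only ones within the range of the controls. Leaving both out separates the groups by itself, so that p-value is no further evidence of a fall. Without Hyperloaded 2, 3 and 6, the libraries with the most skeletal muscle transcripts, it was −0.35 (adjusted p = 0.537). PAX1 was lowest in Hyperloaded 2 and 6, which had the highest summed muscle markers. Hyperloaded 4 also had less PAX1 (29.3 CPM) than every control, with summed muscle markers (100 CPM) within the range of the controls. The part of the muscle transcripts in the PAX1 difference was not tested.

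Both tested members were also read against COL2A1. Among the 6 controls, log2 CPM of PAX1 had a Pearson r of −0.82 with that of COL2A1 (exact permutation p = 0.0361, adjusted p over the 4 members = 0.144) and a Spearman rho of −0.60 (exact p = 0.242, adjusted 0.333). Without the 2 controls farthest from the median COL2A1, numbers 4 and 6, r was −0.88, but with scaling by library size alone r was −0.63 and −0.17 without those 2. Spearman rho with library size alone was −0.54 (exact p = 0.297, adjusted 0.396). The sign was thus the same with both scalings, but the size of r depended on the scaling, most of all without those 2 controls. A2M had r = 0.52 and rho = 0.43 (exact permutation p = 0.300 and 0.419, adjusted 0.350 and 0.419), and r = 0.67 without the same 2 controls. KRT8 had r = −0.60 (exact p = 0.225, adjusted 0.350) and rho = −0.88 (exact p = 0.05, adjusted 0.200) with r = −0.82 without the 2, and KRT18 had r = −0.47 (exact p = 0.350, adjusted 0.350) and rho = −0.58 (exact p = 0.250, adjusted 0.333) with r = −0.76 without them. No relation of the 4 passed after adjustment. Across the groups the order was the other way for PAX1, whose 4 lowest libraries were the 4 Hyperloaded libraries with the least COL2A1. With COL2A1 as a covariate, which is itself an outcome of these libraries, the log2 fold-change was −0.30 for PAX1 and −0.86 for A2M (edgeR adjusted p = 0.894 and 0.891).

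**Figure D2:**
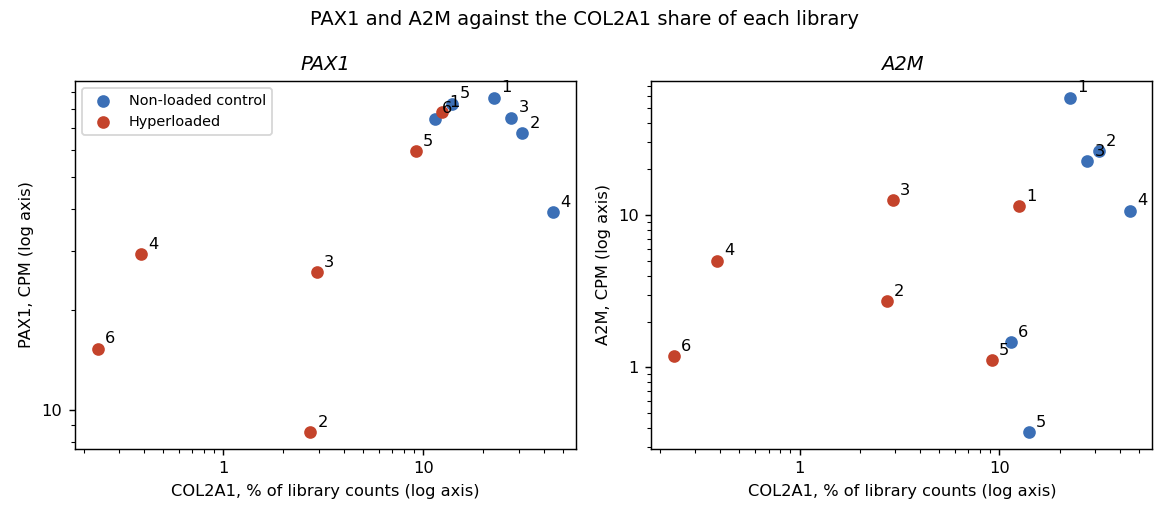
PAX1 (left) and A2M (right) in CPM against the percent of library counts taken by COL2A1, both on log axes, with 1 point per library numbered by replicate (blue, Non-loaded Control, red, Hyperloaded). Hyperloaded 2, 3, 4 and 6, with under 3% COL2A1, had 8.58 to 29.3 CPM of PAX1, and control 4, with 44.8%, had the least PAX1 among the controls.

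The genes most like PAX1 over the 12 libraries were SLC2A10, a facilitative glucose transporter (r = 0.95), NT5E, the ectoenzyme that makes adenosine (r = 0.95), and XPC, a DNA damage sensor (r = 0.95). Centred on each group, r was 0.92, 0.91 and 0.91. Within the controls alone it was 0.18, 0.63 and 0.86, against 0.97, 0.94 and 0.96 within the Hyperloaded libraries. Their log2 fold-changes were −0.73, −1.11 and −0.48, and none passed the test (edgeR adjusted p = 0.151, 0.116 and 0.0858).

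The other sclerotome genes did not share one direction. Of 6 tested, MEOX2 rose, none fell and 5 did not pass. PAX9, the closest relative of PAX1 and its partner in the mouse sclerotome, was at 10.0 to 28.1 CPM in the controls and 5.01 to 22.0 CPM in the Hyperloaded libraries (log2 fold-change −0.38, standard error 0.34, edgeR adjusted p = 0.433). PAX9 was lowest in Hyperloaded 2, as PAX1 was. SOX9, the master factor of chondrocytes, ranged from 149 to 269 CPM and from 23.5 to 373 CPM (−0.36, adjusted p = 0.661). MEOX2, a homeobox factor of the somites, rose by a small amount (log2 fold-change 0.59, standard error 0.19, adjusted p = 0.0433), from 12.8 to 22.4 CPM in the controls to 18.3 to 35.0 CPM. Of 12 fits that left out 1 library, it was called in 4, those without control 1, control 6, Hyperloaded 1 or Hyperloaded 5, and the adjusted p ranged from 0.0169 to 0.0975. Without Hyperloaded 2, 3 and 6 it was 0.25 (adjusted p = 0.446). TBX18, which patterns somites, had a log2 fold-change of 0.65 (adjusted p = 0.140), and MEOX1 and FOXC2 had 0.08 and 0.14. The median log2 fold-change over the 6 was 0.11, beside 0.00 over all tested genes.

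The hedgehog pathway carries the notochord's signal to the sclerotome. SHH, the notochordal ligand, had 0 counts in all 12 libraries, which allows up to 0.113 to 0.283 CPM. IHH, the ligand of growth cartilage, was at 0.08, 1.11, 0.36, 4.22, 0.66 and 0.15 CPM in the controls and 0.54, 3.13, 0.38, 0, 0.17 and 0 CPM in the Hyperloaded libraries. IHH was too low for the fit, as was DHH with at most 6 counts (exact permutation p = 0.448 and 0.303). Of 8 tested genes of the pathway, 4 fell and none rose, beside 8.45% of all tested genes called lower and 10.8% called higher. The median log2 fold-change of the 8 was −1.19, beside 0.00 over all tested genes. All 8 estimates were negative.

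Among receptors, PTCH1, both receptor and target of the pathway, fell (log2 fold-change −2.41, standard error 0.76, edgeR adjusted p = 0.0438). It was at 20.4, 55.3, 80.6, 197, 6.79 and 9.27 CPM in the controls and at 29.5, 11.0, 6.09, 8.85, 6.08 and 7.74 CPM in the Hyperloaded libraries. Controls 5 and 6 were at the level of the Hyperloaded libraries, control 1 was below Hyperloaded 1, and controls 2 to 4 were above all 6. The co-receptors CDON and BOC fell too. CDON (log2 fold-change −1.42, adjusted p = 0.0335) had 42.5 to 202 CPM in the controls and 25.2 to 81.0 CPM in the Hyperloaded libraries, and BOC (−1.64, adjusted p = 0.0376) had 64.0 to 220 and 19.5 to 130 CPM. SMO, the signal transducer, did not pass (−0.53, adjusted p = 0.147).

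Among the transcription factors, GLI3, mainly a repressor, fell (log2 fold-change −1.07, standard error 0.29, edgeR adjusted p = 0.0263). It ranged from 36.8 to 59.9 CPM in the controls and from 10.8 to 41.1 CPM in the Hyperloaded libraries, where Hyperloaded 5 alone was within the range of the controls. GLI2 (−0.22, adjusted p = 0.627) did not pass, nor did GLI1, an activator and target of the pathway (−1.30, adjusted p = 0.181). SUFU, which holds GLI proteins in the cytoplasm, had −0.72 (adjusted p = 0.0592).

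The count of 4 was not stable. It was 0 without control 3, Hyperloaded 4 or Hyperloaded 6, 1 without control 2, control 4, Hyperloaded 2 or Hyperloaded 3, 3 without control 1, control 5 or Hyperloaded 5, 5 without control 6 and 7 without Hyperloaded 1. It was also 0 without Hyperloaded 2, 3 and 6 together, and 0 with COL2A1 as a covariate, where 6 of the 8 estimates were negative. In each fit that left out 1 library, 7 or 8 estimates were negative. With scaling by library size alone 4 fell and 7 were negative. Beside these genes, the summed chondrocyte markers were at 135214 to 688187 CPM in the controls and 4646 to 163478 CPM in the Hyperloaded libraries, and 3 of 5 endothelial markers fell. The part of either cell type was not tested.

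**Figure D3:**
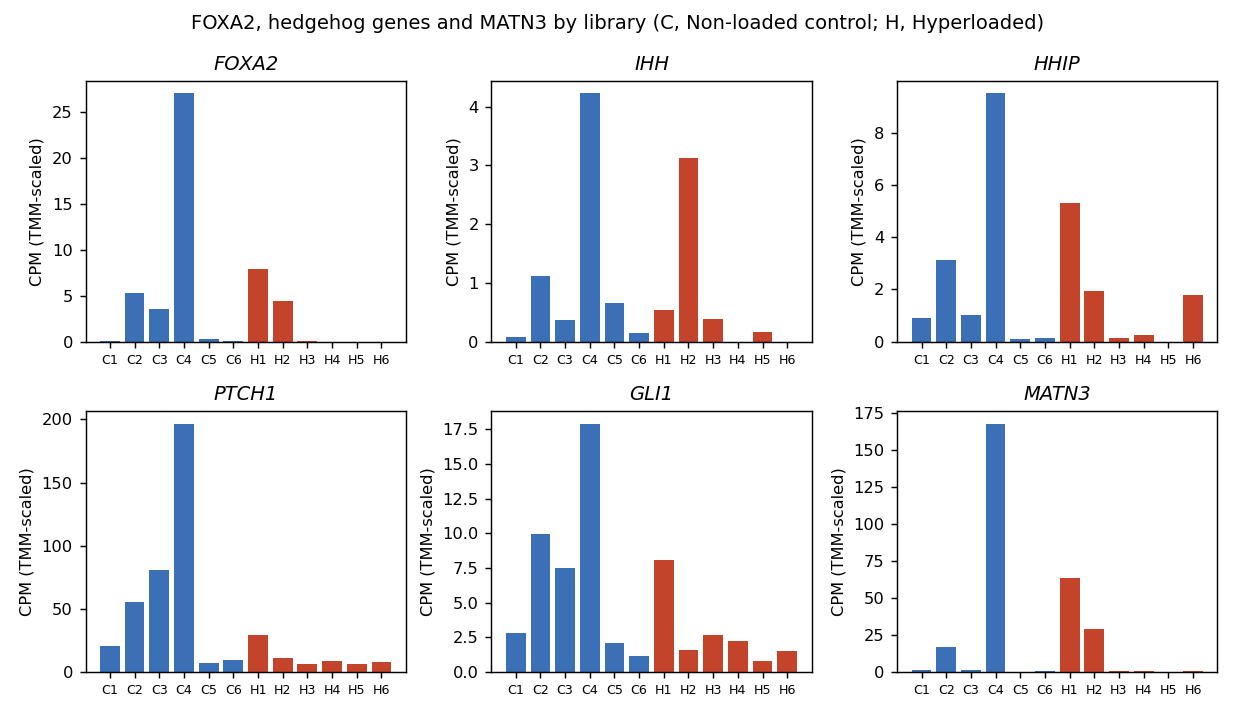
CPM (TMM-scaled) of FOXA2, IHH, HHIP, PTCH1, GLI1 and MATN3 in control libraries 1 to 6 (blue) and Hyperloaded libraries 1 to 6 (red). All 6 genes were highest in control 4, and FOXA2 and MATN3 were next highest in Hyperloaded 1.

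Among the further notochord and nucleus pulposus markers, FOXA2 stood out by library rather than by group. The notochord markers TBXT, NOTO and FOXA1 had no named row and could not be read. FOXA2 is a forkhead factor that defines the notochord and is also made by hypertrophying chondrocytes in the mouse. It was at 0.04, 5.31, 3.56, 27.0, 0.28 and 0.05 CPM in the controls and at 7.89, 4.37, 0.06, 0, 0 and 0 CPM in the Hyperloaded libraries. It was thus found in controls 2, 3 and 4 and in Hyperloaded 1 and 2, and was at or under 3 counts in the other 7 libraries (exact permutation p = 0.340). MATN3, a matrix protein of growth cartilage, was highest in the same control 4 (168 CPM) and Hyperloaded 1 (63.4 CPM), and then in Hyperloaded 2 (28.7 CPM) and control 2 (16.8 CPM), with at most 1.24 CPM elsewhere. HHIP, a hedgehog decoy and target, had 9.52 CPM in control 4 and 5.32 CPM in Hyperloaded 1. KRT8 and KRT18 did not follow FOXA2 in every library. Control 4 had 0 counts of each, whereas Hyperloaded 2 had 20 counts of KRT8 and 44 of KRT18.

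Of 8 tested markers in this list, 3 rose, none fell and the median log2 fold-change was 0.51. Over all tested genes, 10.8% were called higher, 8.45% lower, and the median was 0.00. NCAM1, a neural cell adhesion molecule also found in muscle, nerve and notochordal cells, rose (log2 fold-change 2.90, standard error 0.48, edgeR adjusted p = 0.00568). Every Hyperloaded library (3.51 to 29.9 CPM) was above every control (1.57 to 2.55 CPM), as in 3.81% of all tested genes. NCAM1 was highest in Hyperloaded 2 and 6, and without Hyperloaded 2, 3 and 6 its log2 fold-change was 2.09 (adjusted p = 0.0236). It was called in each of the 12 fits that left out 1 library. Carbonic anhydrase 3 (CA3), a marker of the nucleus pulposus in rodents and an abundant protein of slow muscle, rose (log2 fold-change 7.99, standard error 2.06, adjusted p = 0.0212). It was at 0 to 6.98 CPM in the controls, at 2846, 74.0 and 384 CPM in Hyperloaded 2, 3 and 6, and at 2.09 to 25.5 CPM in the other 3. Without Hyperloaded 2 alone its log2 fold-change was 5.51 (adjusted p = 0.0315), without control 2 it was 7.75 (adjusted p = 0.0510), and without Hyperloaded 2, 3 and 6 it was 2.24 (adjusted p = 0.316).

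GPC3, a heparan sulphate proteoglycan, rose as well (log2 fold-change 1.14, standard error 0.35, edgeR adjusted p = 0.0379), from 2.17 to 5.67 CPM in the controls to 2.57 to 9.84 CPM. Of 12 fits that left out 1 library, it was called in 3, those without control 3, Hyperloaded 1 or Hyperloaded 5, with adjusted p of up to 0.0782, and without Hyperloaded 2, 3 and 6 it was 0.50 (adjusted p = 0.439). Galectin-3 (LGALS3), caveolin-1 (CAV1), NRP1, TEK and MAP1B did not pass, with log2 fold-changes of 0.00, 0.43, 0.25, 0.03 and 0.59. N-cadherin (CDH2), the adhesion molecule of nucleus pulposus cells, was too low for the fit. It was at 0.19, 0.85, 0.06, 0.11, 0.47 and 2.28 CPM in the controls and at 2.27, 4.66, 2.16, 0.37, 1.97 and 1.64 CPM in the Hyperloaded libraries (unadjusted exact permutation p = 0.0368). Fitted without a minimum on counts, it had a log2 fold-change of 1.69 (edgeR adjusted p = 0.140). CDH2 was highest in Hyperloaded 2, and muscle also makes it. Carbonic anhydrase 12 (CA12), also too low for the fit, went the other way. It was at 0.23 to 1.45 CPM in the controls and 0.25 to 0.77 CPM in the Hyperloaded libraries. Its difference in mean log2 CPM was −0.37 (unadjusted exact permutation p = 0.364). SNAP25 had at most 2 counts per library.

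**Figure D4:**
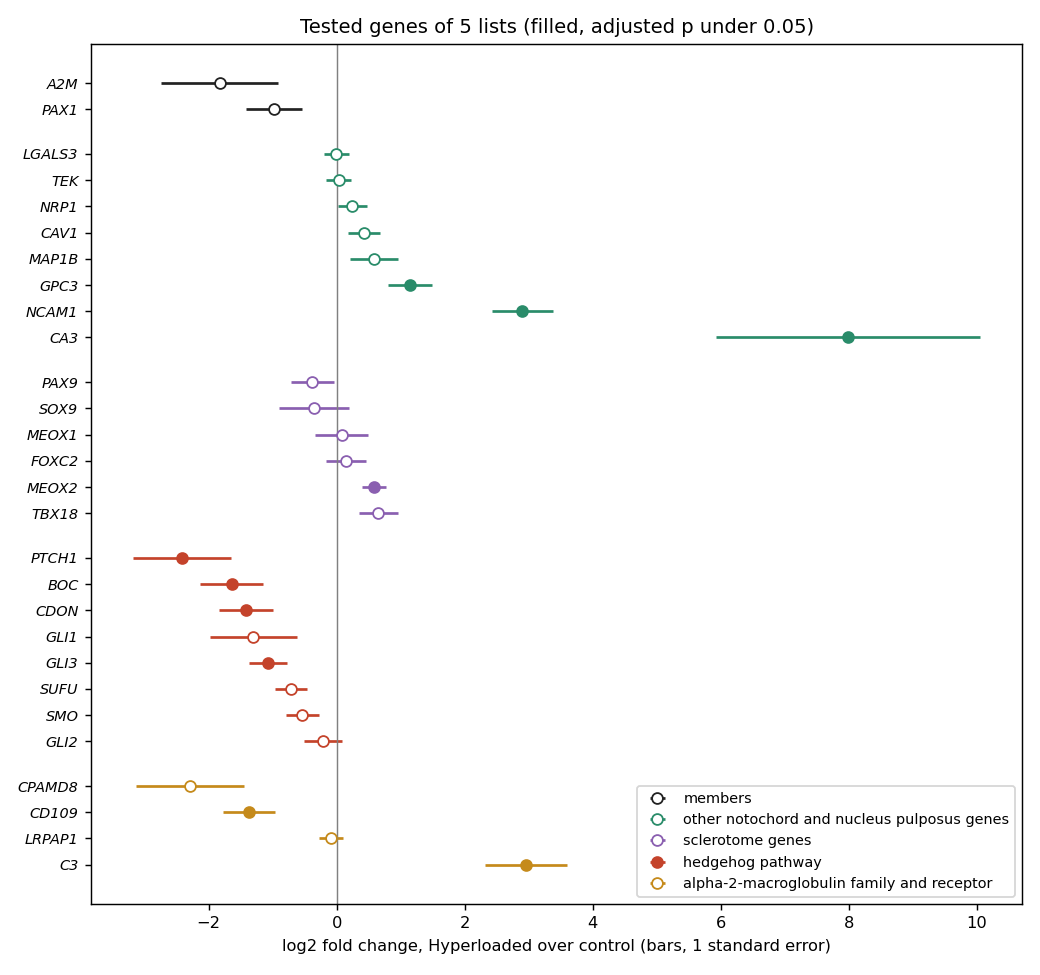
Fitted log2 fold-change (Hyperloaded over Non-loaded Control) of the tested genes of 5 lists, 1 gene per line, with bars of 1 standard error and filled points for an edgeR adjusted p under 0.05. Both members are open points below 0, the 8 hedgehog genes are all below 0 with 4 filled, and CA3 has the widest bar.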

How the data were processed

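Per the labels and the methods of the study, libraries were made with a TruSeq kit, base calls were converted with CASAVA and reads were mapped to Sscrofa11.1 in JMP Genomics. The authors deposited expected counts per gene, not normalized, which can split a read between similar genes, so that A2M and its neighbour PZP, or the keratins and their relatives, may share reads. Strand use in counting is not given in the sources used here. Expected counts were rounded to whole numbers. A gene name table gave symbols to 11700 of 22198 identifiers (52.7%), and positions and sequences came from RefSeq.

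A gene was tested if all libraries of either group held 10 counts or more of it. The quasi-likelihood test came from edgeR 4.0.16, run in R 4.3.3 (TMM, no covariate, Benjamini-Hochberg over 12597 genes, calls at an adjusted p under 0.05). This minimum lets in a gene that is scarce in 1 group only when the other group has it. Members below the minimum were compared by exact permutation over the 924 assignments of libraries. Lists are described by counts and medians. Alternatives used DESeq2 1.42.0, limma 3.58.1, other scalings, filters and sets of libraries. On simulated counts for this comparison, with 12934 genes tested, the fit recovered 7 of 75 genes changed 1.5-fold, 16 of 58 changed 2-fold and 61 of 63 changed 4-fold, and called 9 unchanged genes, so changes of 2-fold or less were mostly missed. In the measured data, COL2A1 (log2 fold-change −2.56, edgeR adjusted p = 0.0690) and CPAMD8 (−2.29, adjusted p = 0.0712) did not pass. The simulated rate at 4-fold therefore cannot be carried over to every gene, such as the widely spread A2M. No 2 libraries of the same group agreed within sampling noise. Ratios between keratins were not computed, because most libraries had 3 or fewer counts of each. Plots used Python 3.11.15 and matplotlib 3.10.9.

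Members and lists were chosen with earlier results of these data known. The named genes are all members, tested genes of the lists taken from those with the smallest p (up to 6, or 3 for cell type markers, of which some are left out of the text) and the 3 genes most like each tested member, with markers below the minimum named as not tested. COL1A2 and COL2A1 describe the tissue. GLI1, GLI2, LGALS3 and TEK were named outside this rule, after their values were seen.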

Additional observations from a re-analysis of the deposited data

Results flagged for a closer look

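In 3 of the 8 combinations of a measured member and a group, 1 library stood apart from the other 5 by Dixon's test at the 95% level. Chance gives this in about 1 of 20 groups of normally distributed values. That rate does not hold for KRT8 and KRT18 in the controls, where 3 of 6 libraries had 0 counts of each gene and so the same log2 CPM. KRT8 was highest in control 5 (log2 CPM 1.99) and so was KRT18 (log2 CPM −0.37), and these 2 values come from 41 and 7 counts. PAX1 was lowest in control 4 (log2 CPM 5.30), the control with the most COL2A1, MATN3 and FOXA2.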

How the results depend on the processing

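The count of tested members called was 0 in the main test and 1 (PAX1) with limma voom. It was 1 without Hyperloaded libraries 1 and 5, whose PAX1 was within the range of the controls. It was between 0 and 1 when 1 library at a time was left out, where the 1 was Hyperloaded 1. The log2 fold-change of PAX1 stayed negative in every alternative run, from −1.87 to −0.30, and that of A2M from −3.24 to −0.86, with adjusted p for A2M of 0.0577 to 0.891. Leaving out 1 library gave −1.36 to −0.77 for PAX1 and −2.23 to −1.12 for A2M. Samples with the same replicate number come from different pigs. Their deviations from the group means had r of 0.22, 0.18 and 0.26 for numbers 3, 5 and 6, and of −0.12, 0.03 and −0.12 for numbers 1, 2 and 4, so the numbers were not taken as pairs. With the replicate block, the log2 fold-change was −1.29 for PAX1 (adjusted p = 0.0657) and −1.35 for A2M (adjusted p = 0.0974), and 0 members were called. The sign of some genes reversed. With COL2A1 as a covariate, PHACTR1 had 0.25, MMP14 0.18, IRAG1 0.087 and GLI1 0.16. IRAG1 had 0.029 with library size only, and PHACTR1 had 0.015 without Hyperloaded 2, 3 and 6. The cause was not tested. Of all calls, 56.1% were higher in the Hyperloaded libraries with TMM, 85.8% with library size only and 44.3% with upper quartile factors. Library size only moved the median of all genes by 0.28. The calls over all genes were 1361 higher and 1065 lower, against 127 and 40 without Hyperloaded 2, 3 and 6, 2139 and 1911 without Hyperloaded 1 and 5, and 7 and 0 with COL2A1 as a covariate. With a prior count of 0.5, the difference in log2 CPM was 1.31 for KRT8 and 0.90 for KRT18 (exact permutation p = 0.355 and 0.459). The keratin ratios were not run.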
